A study of Sus scrofa with 6 samples.

Results

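The genes described here are 34 components and regulators of the complement system, taken by symbol from a table of 17109 genes measured in pig liver, in which all 34 were found. They comprise 6 genes of the classical pathway (C1QA, C1QB, C1QC, C1R, C1S and C2), 4 of the lectin pathway (MBL2, FCN2, MASP1 and MASP2), C3 with 3 genes of the alternative pathway (CFB, CFD and CFP), and 7 of the terminal pathway (C5, C6, C7, C8A, C8B, C8G and C9). The remainder are 8 fluid-phase regulators (SERPING1, C4BPA, C4BPB, CFI, VTN, CLU, CPN1 and CPN2), 3 membrane regulators (CD46, CD55 and CD59) and 2 receptors for the anaphylatoxins (C3AR1 and C5AR1). All 34 passed the filter on low counts in both comparisons below.

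Complement is a cascade of plasma proteins, most of them made by hepatocytes, that marks and lyses microbes and clears immune complexes. The classical pathway is started by C1q bound to antibody, the lectin pathway by lectins and ficolins bound to sugars, and the alternative pathway by C3 that hydrolyses on its own. All of them cleave C3 and then C5, after which C5b joins C6, C7, C8 and C9 into the membrane attack complex, and regulators in plasma and on cells stop the cascade at each of these steps. C1q differs from most of the plasma components in that macrophages, which in liver are Kupffer cells, are its main source.

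RNA was sequenced from the livers of 3 ASGR1+/- Bama minipigs (libraries S03 to S05) and from 3 WT animals of the breed (WT1 to WT3), all fasted overnight, with 1 library per animal. The ASGR1+/- animals carry 1 edited allele of ASGR1, a subunit of the asialoglycoprotein receptor of hepatocytes, in which CRISPR/Cas9 cut out a stretch across an intron-exon junction. The edited pigs of the study go back to fibroblast colonies selected for nuclear transfer, and which colony or litter the 3 animals come from is not in the labels. Pigs of the study were a few months old and close in age within an experiment, and neither the generation nor the age of each liver donor is in the labels. The study set S03 aside after its principal-component analysis, and it is shown apart here.

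ASGR1 itself had a level of 290.4 CPM (the depth-scaled count, with TMM factors applied) in S04, 273 (S05) and 334 (S03), with WT libraries at 285 to 369.7, and counts over the whole gene do not resolve the edit. Library totals ran from 15397768 (S03) to 16237732 (WT3) estimated counts. S03 stood apart in several ways. Genes of chromosome Y summed to 45.3 CPM (S03) and to 436 to 469 in the other 5 libraries, in a study that names 1 female pig. Blood cell markers summed to 825 CPM (S03), 24.7 (S04), 34.9 (S05) and 113 to 271 in WT. Endothelial markers summed to 833 CPM (S03), 263 (S04), 371 (S05) and 437 to 540.5 in WT, with S03 the highest library for 8 of the 11 tested. Without S03, 9 of these 11 had a negative fold change, and DESeq2 called 4 lower and 1 higher. Hepatocyte markers were detected in every library, and ALB, which encodes albumin, ran from 9055 CPM (S04) to 114548 (WT3). In bulk tissue, fewer cells of a type and less RNA per cell cannot be told apart.

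Complement transcripts were abundant in these livers, and their levels spanned a wide range. In TPM, which is scaled per length and so allows genes to be compared, C3 was the highest in WT, with 6168 ± 1109 TPM (SD, n = 3). It was followed by VTN, the plasma and matrix protein vitronectin that holds terminal complexes in solution, with 4589 ± 410.4 TPM (SD, n = 3). Clusterin (CLU), which acts at the same step, had 3433 ± 395 TPM (SD, n = 3), and SERPING1, the C1 inhibitor, had 2184 ± 581 TPM (SD, n = 3). The lowest levels were those of C3AR1 (17.8 TPM), C5AR1 (5.6 TPM) and CD55 (3.58 TPM). Of 33 pairs of neighbours in this order, 26 had WT ranges that overlapped. The 7 that did not were C3 and VTN, VTN and CLU, CLU and SERPING1, CFB and C1S, C1R and C9, C4BPA and CFI, and C3AR1 and C5AR1.

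By group, the fluid-phase regulators held 41.1% of the summed member TPM in WT, C3 with the alternative pathway 28.7%, the classical pathway 17.3%, the terminal pathway 11.6% and the lectin pathway 1.08%. Membrane regulators held 0.169% and the receptors 0.0792%. The sum over all members was 28610 TPM (S04), 26275 (S05) and 24713 (S03), against 32257 (WT1), 29020 (WT2) and 24737 (WT3), so S04 and S05 lay inside the WT range and S03 just under it.

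**Figure D1:**
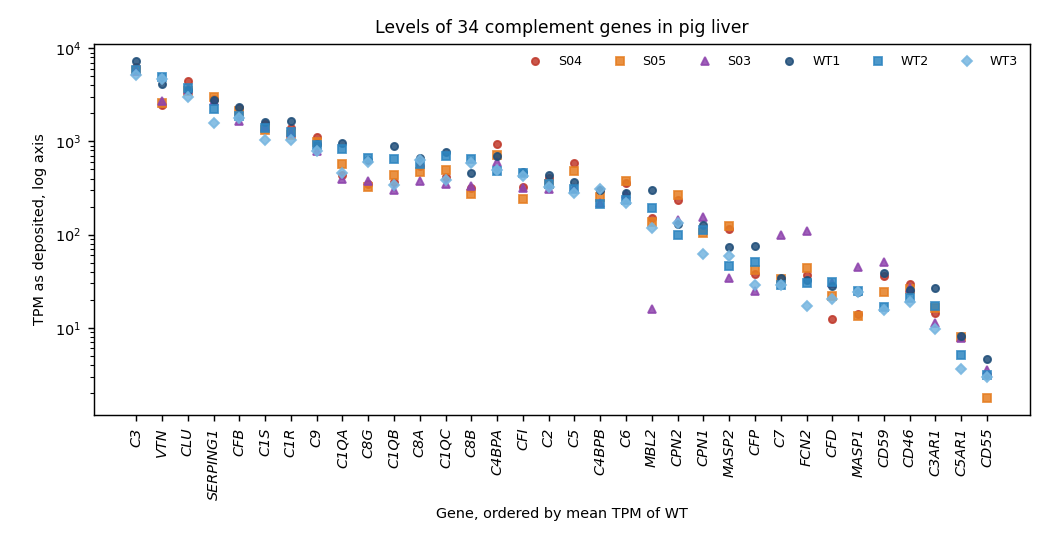
Level of each complement gene in TPM on a log axis, 1 point per library, with genes ordered by their WT mean. C3 (6168 TPM) is at the top of the WT order and CD55 (3.58 TPM) at the bottom, and most neighbouring genes overlap.

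The comparison of S04 and S05 with WT asks how the ASGR1+/- livers differ from WT livers. No member passed edgeR (adjusted p of 0.05 or less) among the 13401 genes tested, where 0.791% of all genes did. At an unadjusted edgeR p under 0.05 there were 11 members, 4 higher (MASP2, C5, C6 and CPN2) and 7 lower (C1QA, MASP1, CFD, C8B, C8G, CFI and VTN), or 32.4% of members beside 20.9% of all genes (8.89% higher and 12% lower). DESeq2, the tool of the study, called 9 of these 11 at an adjusted p of 0.05 or less, all but C1QA and CFD, or 26.5% of members beside 9.57% of all genes (3.26% higher and 6.3% lower). Members went both ways, 16 with a positive and 18 with a negative log2 fold change, and their median was -0.08 where that of all genes tested was 0.00. This median ran from -0.22 (without S04) to 0.08 (without S05) when 1 library was left out. Libraries did not overlap between the groups for 17 members, 9 higher and 8 lower, where 39.1% of all genes did not overlap (19.0% higher and 20.1% lower).

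With S03 included no member passed edgeR, where 0.136% of 13243 genes did, and 9 had an unadjusted p under 0.05, 1 higher and 8 lower (6.67% and 9.45% of all genes). DESeq2 then called 4 members, C8B, C8G, CFI and VTN, all lower, or 11.8% of members beside 5.64% of all genes called and 3.91% called lower. These 2 comparisons share S04, S05 and the WT libraries, so their values are given side by side and not as separate evidence.

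**Figure D2:**
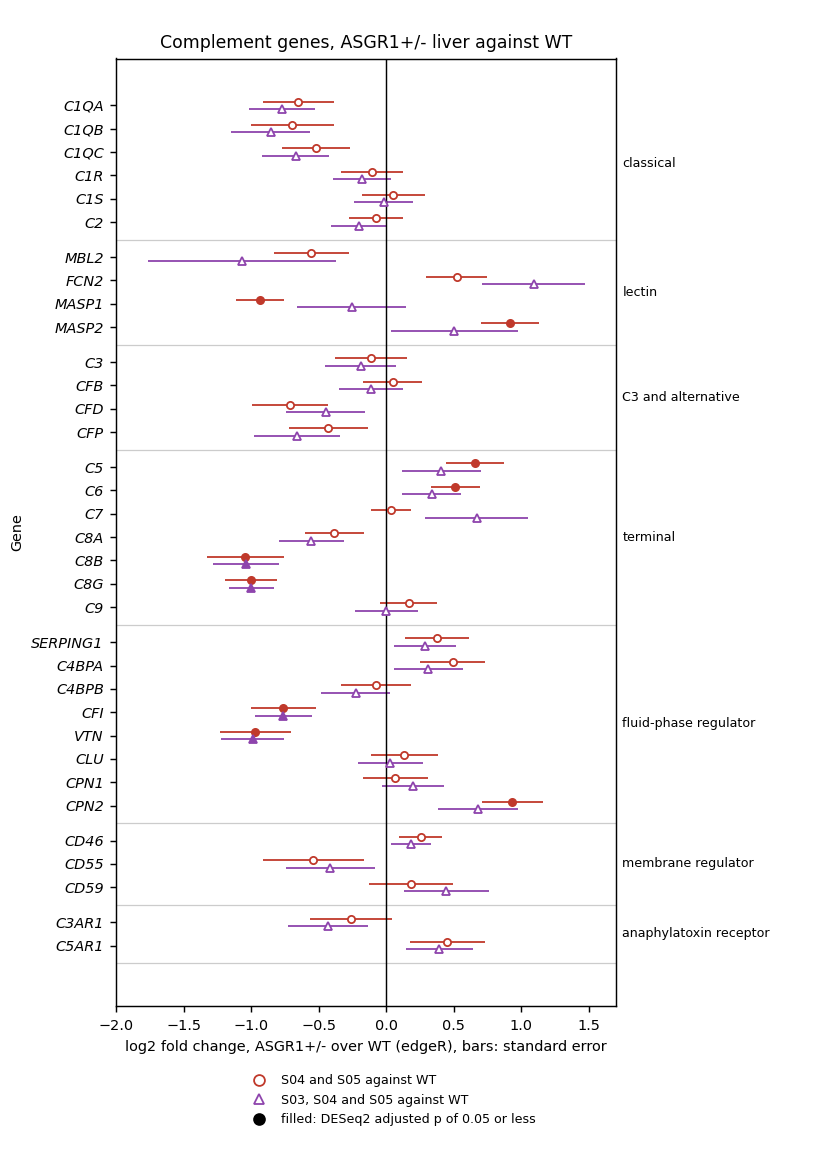
Log2 fold change over WT of each complement gene with its standard error from edgeR, for S04 and S05 and for all 6 libraries, genes grouped by pathway. For S04 and S05, C8B (-1.05) and C8G (-1.0) lie at one end and CPN2 (0.93) and MASP2 (0.91) at the other. With all 6 libraries the ends are MBL2 (-1.07) and FCN2 (1.09), and MASP1, C7 and FCN2 move most when S03 is added.

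Classical pathway genes split into the C1q chains and the rest. C1QA, C1QB and C1QC encode the chains of C1q, the part that recognises bound antibody, and they lie next to each other on chromosome 6 of Sscrofa11.1 (C1QA from 80586259 to 80589213). C1QA stood at 202 CPM (S04) and 249.8 CPM (S05), compared with 407 (WT1), 401 (WT2) and 258 (WT3), and 172 (S03). In TPM the groups overlapped, since S05 (569.85) lay above WT3 (463.67). In CPM, C1QA was below every WT library in both S04 and S05, in S05 only narrowly below WT3. Its log2 fold change was -0.65 (standard error, SE, 0.26, unadjusted p = 0.0422, edgeR adjusted p = 0.223, DESeq2 adjusted p = 0.141). C1QB (-0.70, edgeR adjusted p = 0.259) and C1QC (-0.52, edgeR adjusted p = 0.297) had similar values, but WT3 lay between S04 and S05 in both.

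The 3 C1q chains varied together over the libraries, with WT1 and WT2 high and WT3, S04, S05 and S03 low. The ratio of C1QB to C1QC in TPM stayed between 0.873 (S03) and 1.15 (WT1). Without WT3, DESeq2 called all 3 chains, and without WT1 none of them had an unadjusted p under 0.05. Kupffer cell and macrophage markers summed to 1922 CPM (S04) and 2349 (S05), against 2509 to 3064 in WT and 1797 (S03). Of the 14 macrophage markers, all above 0 in every library, 11 had a negative fold change. DESeq2 called 3 of them, MARCO, CD5L and SLC40A1, all lower. SPI1 (log2 fold change 1.02), CD163 (0.37) and CD14 (0.21) went the other way. S04 and S05 were above every WT library for SPI1. The lower marker sum rests in large part on CD5L and SLC40A1. CD5L had 525 CPM (S04) and 585 (S05), against 926 to 1310 in WT. SLC40A1 had 347 CPM (S04) and 329 (S05), against 524 to 615 in WT. The part of macrophage content in the C1q values was not tested. CD68, a lysosomal marker of macrophages, had a log2 fold change of -0.21 (edgeR adjusted p = 0.74), and the TPM ratio of C1QA to CD68 was 7.61 (S04), 7.6 (S05) and 8.07 (S03), against 8.43 to 12.5 in WT. Such a ratio depends on the marker chosen. MARCO (-1.55), CD5L (-0.94) and SLC40A1 (-0.79) had larger negative log2 fold changes than C1QA (-0.65), and the other markers did not.

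The proteases that C1q carries and activates had fold changes near 0. C1S, which cleaves C4 and C2, stood at 2802 CPM (S04) and 2159 CPM (S05), compared with 2558 (WT1), 2474 (WT2) and 2153 (WT3), and 2123 (S03). The groups overlapped, and its log2 fold change was 0.05 (SE 0.23, edgeR adjusted p = 0.924). C1R, which activates C1S, had -0.11, and C2, which supplies the protease of the C3 convertase, had -0.08. The median over the 6 classical genes was -0.31.

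In the lectin pathway the 2 MASP proteases went opposite ways in S04 and S05. Both are cut to their active form when mannose-binding lectin or a ficolin binds sugar, MASP1 activating MASP2, and MASP2 then cleaving C4 and C2. MASP1 (chromosome 13, 124938469 to 125028440) stood at 35.6 CPM (S04) and 32.3 CPM (S05), compared with 56.9 (WT1), 64.1 (WT2) and 73.6 (WT3). MASP2 (chromosome 6, 71224637 to 71243041) stood at 214 CPM (S04) and 219.8 CPM (S05), compared with 126 (WT1), 88.6 (WT2) and 131 (WT3). The groups did not overlap for either gene. The log2 fold change of MASP1 was -0.93 (SE 0.18, edgeR adjusted p = 0.0642, DESeq2 adjusted p = 0.000896) and that of MASP2 was 0.91 (SE 0.21, edgeR adjusted p = 0.0873, DESeq2 adjusted p = 0.00445). DESeq2 no longer called MASP1 without S05, nor MASP2 without S04, S05 or WT2.

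S03 lay on the far side of WT for both proteases, with 94.9 CPM of MASP1, above every other library, and 55.9 CPM of MASP2, below every other library. With S03 in the fit the log2 fold change was -0.26 for MASP1 (edgeR adjusted p = 0.799, DESeq2 adjusted p = 0.848) and 0.50 for MASP2 (edgeR adjusted p = 0.65, DESeq2 adjusted p = 0.68). The TPM ratio of MASP1 to MASP2 was 0.122 (S04) and 0.107 (S05), 0.328 to 0.538 in WT and 1.3 (S03). Counts are per gene, so the splice forms of MASP1 (MASP3 and MAp44) and of MASP2 (MAp19) are not separated.

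MASP2 shares 3071 bp with TARDBP, an RNA-binding protein gene that had 240.3 CPM (S04), 240.1 (S05) and 167 to 183 in WT, and whether the counting used strand is not given in the sources used here. TARDBP had a log2 fold change of 0.47 (edgeR adjusted p = 0.175, DESeq2 adjusted p = 0.042), and its part in the MASP2 counts was not tested. MASP1 overlaps RTP1, which was near 0 in every library, and a lncRNA gene that was not analysed here.

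The recognition molecules had less certain differences. MBL2, mannose-binding lectin C, stood at 48.6 CPM (S04) and 42.2 CPM (S05), compared with 88.0 (WT1), 66.3 (WT2) and 45.8 (WT3), so that the groups overlapped. Its log2 fold change was -0.56 (SE 0.28, edgeR adjusted p = 0.313). In S03 it had 4.65 CPM, which was 0.0696 of the WT mean and the largest gap between S03 and WT among the members. MBL1, the other pig mannose-binding lectin, had 76.8 CPM (S03) and 84.3 to 99.9 in the other 5 libraries. FCN2, a ficolin, stood at 24.7 CPM (S04) and 27.6 CPM (S05), compared with 20.0, 21.0 and 13.7 in WT, and 64.4 (S03). By CPM it was the only member above every WT library in all 3 ASGR1+/- livers. Its log2 fold change was 0.52 without S03 (edgeR adjusted p = 0.244) and 1.09 with it (edgeR adjusted p = 0.228).

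**Figure D3:**
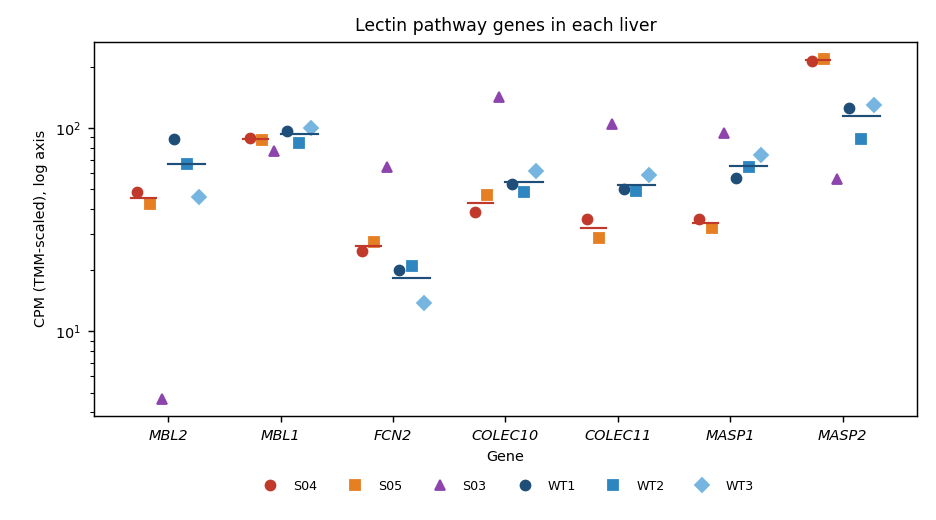
CPM of MBL2, FCN2, MASP1 and MASP2, and of the non-members MBL1, COLEC10 and COLEC11, in each library, with 1 point per library and short lines at group means. S04 and S05 lie below WT for MASP1 and above it for MASP2, and S03 lies at 4.65 CPM for MBL2 and 64.4 CPM for FCN2.

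Neither tool called C3 or a gene of the alternative pathway in either comparison. C3 (chromosome 2, 72431470 to 72471622), the protein on which all pathways converge, stood at 22457 CPM (S04) and 19355 CPM (S05), compared with 24235 (WT1), 21691 (WT2) and 21965 (WT3), and 17654 (S03). S03 was the lowest of the 6 in CPM but not in TPM (5710, against 5210 in WT3), and S04 was inside the WT range. Its log2 fold change was -0.11 (SE 0.27, edgeR adjusted p = 0.838). CFB, factor B, which forms the alternative convertase with C3b, had 0.05, and CFP, properdin, which stabilises that convertase, had -0.43 (edgeR adjusted p = 0.456), and -0.66 with S03 (edgeR adjusted p = 0.362).

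CFD, factor D, the protease that cleaves factor B and is made largely by fat tissue, was low in every liver. It stood at 7.61 CPM (S04) and 12.9 CPM (S05), compared with 15.8 (WT1), 20.0 (WT2) and 14.7 (WT3), and 16.5 (S03), so that S03 was inside the WT range. The log2 fold change was -0.72 (SE 0.28, edgeR adjusted p = 0.214, DESeq2 adjusted p = 0.184), with -0.38 without S04, -1.13 without S05 and -0.45 with S03. CFD lies wholly inside MED16, which had a log2 fold change of -0.01. The median over C3 and the 3 alternative pathway genes was -0.27.

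The terminal pathway held differences in both directions. C5 and C6, the first components of the membrane attack complex, were higher in S04 and S05, and C8B and C8G, which encode chains of C8, the component that inserts the complex into the membrane, were lower. C5 (chromosome 1, 260995662 to 261088868) stood at 2236 CPM (S04) and 1731 CPM (S05), compared with 1290.2 (WT1), 1215 (WT2) and 1263 (WT3). C6 (chromosome 16, 26023646 to 26089518) stood at 800.3 CPM (S04) and 793 CPM (S05), compared with 564 (WT1), 536 (WT2) and 577 (WT3). S04 and S05 lay above every WT library for both genes, with log2 fold changes of 0.66 for C5 (SE 0.21, edgeR adjusted p = 0.155, DESeq2 adjusted p = 0.0163) and 0.51 for C6 (SE 0.18, edgeR adjusted p = 0.181, DESeq2 adjusted p = 0.0176).

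S03 did not share this, with 1036 CPM of C5 and 523 CPM of C6, each below all other libraries in CPM. In TPM S03 lay inside the WT range for both. It had 315 TPM of C5 (282 to 370 in WT) and 272 TPM of C6 (220 to 277 in WT). With S03 in the fit the log2 fold changes were 0.41 for C5 and 0.34 for C6 (DESeq2 adjusted p = 0.554 and 0.507). The TPM ratio of C5 to C3 was 0.0938 (S04) and 0.0842 (S05), against 0.0501 to 0.0542 in WT and 0.0552 (S03). DESeq2 no longer called C6 when any 1 of the 5 libraries was left out, and it called C5 only without S05.

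C8B and C8G were lower in S03 as well as in S04 and S05, and neither tool called C8A. C8A and C8B lie side by side on chromosome 6 (C8A from 155464855 to 155530473, C8B from 155411982 to 155453034) and encode the alpha and beta chains, while C8G, on a scaffold not placed on a chromosome, encodes the gamma chain, a lipocalin. C8G stood at 145 CPM (S04), 130.2 CPM (S05) and 138 CPM (S03), compared with 239 (WT1), 292 (WT2) and 295 (WT3). The 3 ASGR1+/- libraries were close together and all below WT. This was a log2 fold change of -1.0 (SE 0.19, edgeR adjusted p = 0.0674, DESeq2 adjusted p = 6.87e-05), and with S03 it was again -1.0 (SE 0.17, edgeR adjusted p = 0.0649, DESeq2 adjusted p = 2.53e-06). C8G was the only member that DESeq2 called with each of the 5 libraries left out in turn. Without S04 or S05 that arm holds 1 library, and the spread within groups then comes from the WT libraries alone.

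C8B stood at 518 CPM (S04), 427 CPM (S05) and 479.8 CPM (S03), compared with 685 (WT1), 1090.1 (WT2) and 1151 (WT3). The groups did not overlap, and WT1 was nearer to the ASGR1+/- libraries than to WT2 and WT3. The log2 fold change was -1.05 (SE 0.29, edgeR adjusted p = 0.116, DESeq2 adjusted p = 0.00753), and -1.04 with S03 (edgeR adjusted p = 0.115, DESeq2 adjusted p = 0.00208). Without S05 or without WT2, DESeq2 did not call C8B for S04 and S05 against WT. C8A stood at 772 CPM (S04), 631 CPM (S05) and 468 CPM (S03), compared with 857, 834 and 1057 in WT, a smaller gap of -0.38 (SE 0.22, edgeR adjusted p = 0.378, DESeq2 adjusted p = 0.337). The TPM ratio of C8B to C8A was 0.576 (S04) and 0.582 (S05), against 0.688 to 1.13 in WT and 0.884 (S03).

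C9, whose copies form the ring of the pore, stood at 1869 CPM (S04) and 1549.9 CPM (S05), compared with 1421 (WT1), 1584 (WT2) and 1563 (WT3), and 1150.1 (S03). The groups overlapped, with a log2 fold change of 0.17 (SE 0.21, edgeR adjusted p = 0.689). C7 had 0.03 without S03, but 143 CPM (S03) against 49.1 to 55.9 in the other 5. The TPM ratio of C8G to C5 was 0.598 (S04) and 0.676 (S05), against 1.72 to 2.15 in WT and 1.19 (S03). Over the 7 terminal genes the median log2 fold change was 0.03 and the summed TPM was 3147 ± 254 over S04 and S05 (SD, n = 2) and 3302 ± 127 in WT (SD, n = 3).

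**Figure D4:**
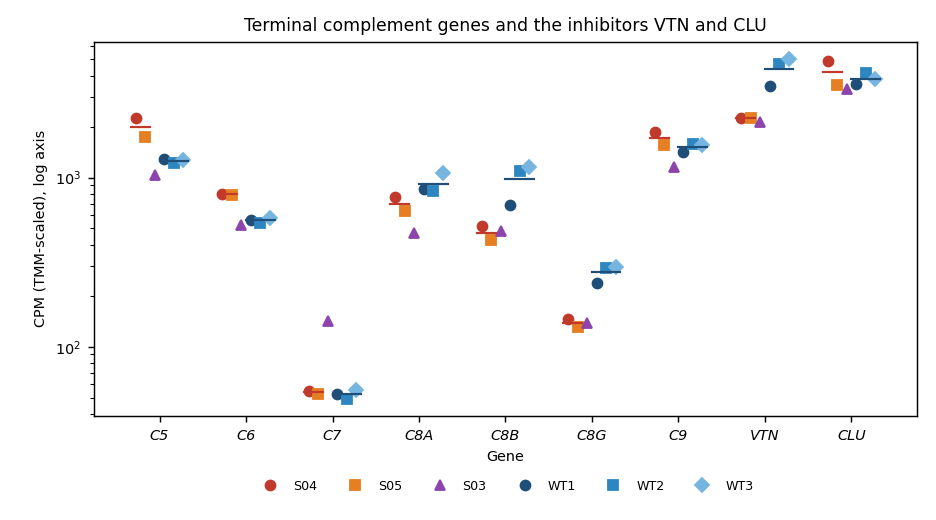
CPM of the 7 terminal pathway genes and of VTN and CLU in each library, with 1 point per library and short lines at group means. C8B and C8G are lower in all 3 ASGR1+/- libraries, whereas C5 and C6 are higher in S04 and S05 and, by CPM, lowest in S03.

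Among fluid-phase regulators, VTN and CFI were lower and CPN2 was higher in S04 and S05. VTN (chromosome 12, 44650532 to 44653916) stood at 2243 CPM (S04), 2234 CPM (S05) and 2142 CPM (S03), compared with 3451 (WT1), 4666 (WT2) and 5044 (WT3). The 3 ASGR1+/- libraries were within a narrow range and all below WT. This was a log2 fold change of -0.97 (SE 0.26, edgeR adjusted p = 0.112, DESeq2 adjusted p = 0.00147), and -0.99 with S03 (edgeR adjusted p = 0.113, DESeq2 adjusted p = 0.000143). Of the 5 libraries, leaving out S05 alone ended the DESeq2 call of VTN without S03. Clusterin, which overlapped between the groups, had 0.13, so that the TPM ratio of VTN to CLU was 0.557 (S04), 0.757 (S05) and 0.759 (S03), against 1.15 to 1.57 in WT.

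CFI (chromosome 8, 112430824 to 112470844) encodes factor I, the protease that inactivates C3b and C4b. It stood at 1232 CPM (S04), 868 CPM (S05) and 1049.7 CPM (S03), compared with 1642 (WT1), 1808 (WT2) and 1895 (WT3), without overlap. The log2 fold change was -0.76 (SE 0.24, edgeR adjusted p = 0.151, DESeq2 adjusted p = 0.0205), and it was -0.76 with S03 as well (edgeR adjusted p = 0.152, DESeq2 adjusted p = 0.00638). The DESeq2 call without S03 remained when S04 was left out and was lost without S05 or any 1 of the WT libraries.

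CPN2 (chromosome 13, 131327508 to 131337721) encodes the regulatory subunit of carboxypeptidase N, which inactivates C3a and C5a. It stood at 312 CPM (S04) and 335 CPM (S05), compared with 159 (WT1), 137 (WT2) and 212 (WT3), and 167 (S03), so that S03 lay inside the WT range. This was a log2 fold change of 0.93 (SE 0.23, edgeR adjusted p = 0.0923, DESeq2 adjusted p = 0.00461), and 0.68 with S03 (DESeq2 adjusted p = 0.242). Its DESeq2 call was lost without S04, S05 or WT2. CPN1, the catalytic subunit, had 0.07 and overlapped.

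Of the other fluid-phase regulators, SERPING1 (0.37, edgeR adjusted p = 0.426) and C4BPA (0.49, edgeR adjusted p = 0.298) were above every WT library in S04 and S05 and inside the WT range in S03. C4BPB, the beta chain of the C4b-binding protein, had -0.08, and the TPM ratio of C4BPA to C4BPB was 3.1 (S04), 2.84 (S05) and 2.79 (S03), against 1.6 to 2.32 in WT. The median over the 8 fluid-phase regulators was 0.10.

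The genes that act at the cell surface were at low levels and none was called. CD59, which blocks C9 on the host membrane, stood at 27.8 CPM (S04) and 20.2 CPM (S05), compared with 29.9 (WT1), 16.9 (WT2) and 16.5 (WT3), and 38.4 (S03). The groups overlapped, with a log2 fold change of 0.18 (SE 0.31, edgeR adjusted p = 0.768). CD46, a cofactor for factor I, had 0.25, and CD55, which speeds the decay of convertases, had -0.54 (edgeR adjusted p = 0.46) at 4.34 to 12.4 CPM. C3AR1, the C3a receptor of myeloid cells, stood at 40.3 CPM (S04) and 43.4 CPM (S05), compared with 68.9 (WT1), 49.2 (WT2) and 32.2 (WT3), and 27.5 (S03). It overlapped between the groups, with a log2 fold change of -0.26 (SE 0.30, edgeR adjusted p = 0.663). C5AR1, the C5a receptor, had 0.45 (edgeR adjusted p = 0.406).

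**Figure D5:**
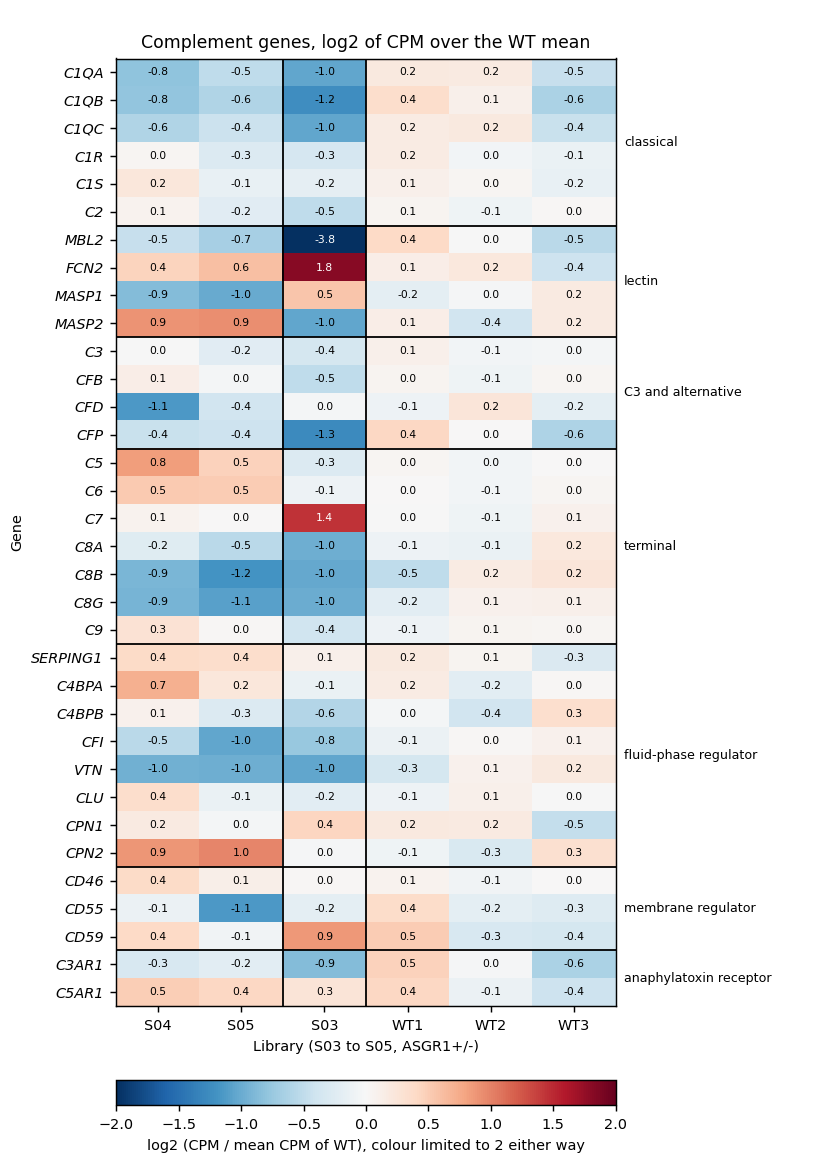
Log2 CPM of each of the 34 genes relative to its WT mean, 1 column per library, genes grouped by pathway. The columns of S04 and S05 resemble each other, and S03 has its own pattern, with MBL2 at -3.84 and FCN2 at 1.82.

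In CPM, S03 was outside the range of the other 5 libraries for 24 of the 34 members. This was 70.6% of members beside 33.7% of all genes. It was above for 5 (FCN2, MASP1, C7, CPN1 and CD59) and below for 19, among them all 6 classical genes. This placing depends on the scaling, since in TPM S03 lay inside the WT range for C1R (1221), C1S (1431) and C3 (5710). Also in CPM, all 3 ASGR1+/- libraries were below every WT library for 6 members, C1QA, C8A, C8B, C8G, CFI and VTN. With FCN2 this made 7 members without overlap, or 20.6% beside 21.8% of all genes (9.94% higher and 11.8% lower). In TPM the groups overlapped for C1QA. Stellate cell and fibroblast markers, which included COL1A1 and DCN, summed to 1371 CPM (S03), 461 to 594 over S04 and S05, and 539 to 1200 in WT. The part of these cells, of blood and of the chromosome Y difference in the S03 values was not tested.

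Other complement genes, 31 by a list that holds no member, gave 20 in the table and 18 tested by edgeR. None passed edgeR, and at an unadjusted p under 0.05 there were 1 higher and 3 lower, or 22.2% beside 20.9% of all genes. C4A, the fourth component, cleaved by C1S and MASP2, stood at 4926 CPM (S04) and 5308 CPM (S05), compared with 3527 (WT1), 2825 (WT2) and 2889 (WT3), and 2654 (S03). The log2 fold change was 0.73 (SE 0.23, edgeR adjusted p = 0.147, DESeq2 adjusted p = 0.00499), and 0.48 with S03 (DESeq2 adjusted p = 0.452). The TPM ratio of C2 to C4A was 0.307 (S04), 0.231 (S05) and 0.382 (S03), against 0.428 to 0.504 in WT.

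COLEC11, a collectin that also binds MASP proteases, stood at 35.9 CPM (S04) and 28.7 CPM (S05), compared with 50.4 (WT1), 48.8 (WT2) and 59.1 (WT3), and 105 (S03). This order, S04 and S05 low and S03 highest, was also that of MASP1. The log2 fold change of COLEC11 was -0.71 (SE 0.18, edgeR adjusted p = 0.102, DESeq2 adjusted p = 0.0294), and with S03 in the fit it was 0.10 (DESeq2 adjusted p = 0.958). Endothelial markers, given above, had the same order in their sum. Not every one followed it, since LYVE1 was above WT in S04 and S05, and S03 was below WT for CDH5. Among stellate cell and fibroblast markers, S03 was highest for 8 of 12, and RELN had this order. RELN had 43.6 CPM (S04), 39.7 (S05), 63.1 to 81.4 in WT and 115 (S03). The sum of that list overlapped between S04, S05 and WT. The part of either list in the COLEC11 and MASP1 values was not tested. COLEC10, the partner with which COLEC11 forms a heteromer, had 38.5 CPM (S04), 46.9 (S05), 48.4 to 61.6 in WT and 143 (S03). PROS1, protein S, which circulates bound to the C4b-binding protein, stood at 354 CPM (S04) and 276 CPM (S05), compared with 471, 498 and 576 in WT, and 349 (S03) (log2 fold change -0.71, edgeR adjusted p = 0.139, DESeq2 adjusted p = 0.0219). SUSD4 had the other unadjusted edgeR p under 0.05 without S03, at 0.124 to 1.97 CPM. With S03 in the fit DESeq2 called 2 genes of this list, both lower. They were PROS1 (-0.66, edgeR adjusted p = 0.161, DESeq2 adjusted p = 0.0181) and CPB2 (-0.58, edgeR adjusted p = 0.218, DESeq2 adjusted p = 0.0385).

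Secreted proteins of the acute phase, measured for comparison, summed to 173465 CPM (S04) and 200218 (S05), against 79716 to 114954 in WT and 92929 (S03). Of 17 such genes tested, edgeR called 3 higher (LCN2, SAA2 and ITIH4) and DESeq2 called 10 higher and 1 lower. For this sum S04 and S05 were above and S03 was inside the WT range. In CPM this was also the arrangement of CPN2, C4BPA, SERPING1, CD46 and C5AR1. For MASP2, C5 and C6, S04 and S05 were above WT but S03 was below it, and for FCN2 S03 was above WT too. Hepatocyte markers summed to 64005 CPM (S04), 72362 (S05) and 76480 (S03), against 85798 to 206699 in WT, a sum that ALB carried in part. Without ALB, left out after its values were seen, the other 13 summed to 54950 (S04), 59939 (S05) and 48026 (S03), against 52282 (WT1), 68929 (WT2) and 92151 (WT3), so that S04 and S05 lay inside the WT range. That placing rests in part on FGB. It alone had 29705.5 CPM (S04), 36679 (S05) and 18774 (S03), against 11167 (WT1), 15800 (WT2) and 23624 (WT3). Of the 14 markers, 5 had a positive and 9 a negative fold change in S04 and S05, and DESeq2 called 1 higher (FGB, a fibrinogen chain that is also an acute phase gene) and 5 lower. The part of either list in the complement values was not tested.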

How the data were processed

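Liver RNA of 3 ASGR1+/- and 3 WT minipigs was sequenced on a BGISEQ instrument by the authors. Per the paper's methods, reads were trimmed with SOAPnuke and aligned with HISAT and Bowtie2, and the submitters' processing notes name HISAT2 2.0.4, Bowtie2 and Sscrofa11.1. The tool and strand setting of the counting are not given in the sources used here. The deposited table holds an estimated count per gene, not normalized, of which 12% of cells were not whole, and these were rounded for the tests. The TPM values, scaled per length to a fixed sum per library, were made by the authors and used for levels and ratios between genes. The deposited FPKM values, scaled per length and by library size, were used only to check the order of levels. The authors' group averages were not used.

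All 17109 gene IDs matched the reference annotation, which gave the coordinates, and 9 symbols held as dates were replaced from it. Testing was by edgeR 4.0.16 under R 4.3.3, with its quasi-likelihood method (two-sided, TMM, filterByExpr with a minimum count of 10, Benjamini-Hochberg over all genes tested). DESeq2 1.42.0 was an alternative, as were other scalings, no filter and each library left out. CPM was scaled by TMM over all 6 libraries. P-values set differences against the spread between animals within groups, which both tools share in part between genes. Without S03 they leave out the spread that S03 adds among the ASGR1+/- animals. Scripts were tested on simulated data. Named genes were those past a threshold in S04 and S05 against WT (edgeR unadjusted p, or adjusted p of either tool), and the gene with the highest WT TPM of each group. Members and lists were chosen with earlier results of these data known, so no set was tested. Promoter and protein sequences were not analysed here.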

Additional observations from a re-analysis of the deposited data

How the results depend on the processing

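With edgeR, no member passed under RLE scaling, library totals, no filter or any library left out, in either comparison. DESeq2 called 9 members for S04 and S05 and 4 with all 6 libraries, and for S04 and S05 it called 2 to 9 when 1 library was left out: 5 without S04, 2 without S05 (C5 and C8G), 6 without WT1, 3 without WT2 (MASP1, C8G and VTN) and 9 without WT3, when the C1q chains entered and C5, C6 and CFI were lost. Leaving out S04 or S05 leaves 1 library in that arm, which is assumed to vary like the WT libraries. These alternatives of DESeq2, and the counts by unadjusted p and overlap, were added after seeing the data. Members with an unadjusted edgeR p under 0.05 numbered 8 to 15 with 1 library left out, and 5 to 11 with all 6 as the start, where 5 was without WT2. MASP1, MASP2, C8G, VTN and CPN2 were among them each time for S04 and S05. Libraries did not overlap for 12 members by library totals and for 15 by TPM, against 17.

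Median log2 fold changes moved with single libraries. With 1 library left out, the median of all 34 ran from -0.22 to 0.08, that of the membrane regulators from -0.066 to 0.39, the lectin median ran from -0.21 to 0.15, that of C3 and the alternative pathway from -0.40 to -0.10, and that of the fluid-phase regulators from -0.086 (without S04) to 0.28 (without S05). With all 6 libraries the lectin median was 0.12. Scaling by library totals moved the median of all genes to 0.11 and the terminal median to 0.14. Members near 0 changed sign: C1S to -0.15 without S04 and -0.0205 without WT3 and -0.0203 with S03, C3 to 0.004 without S05, C9 to 0.00 with S03, CD59 to -0.066 without S04 and C3AR1 to 0.0495 without WT1. No other named member changed sign, and FPKM gave the same order of levels as TPM. No paired analysis was possible because the labels number the animals without pairing them across genotypes. The cause of these shifts was not tested. The number of animals limits the precision, and with 2 animals in 1 group a call rests on the spread that edgeR or DESeq2 shares between genes.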
